A study of Mus musculus with 6 samples.

Results

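The genes of the Sonic hedgehog pathway studied here were 9: Shh, Ptch1, Smo, Gli1, Gli2, Gli3, Hhip, Boc and Cdon. They were found by matching gene symbols in a table of 55487 genes, and all 9 were measured, each as 1 row. The samples were pieces of spinal cord from the thoracic level of mice on the day of birth (postnatal day 0), 3 from Myt1-/- and 3 from wild-type (WT) animals, whose RNA was sequenced. Myt1-/- mice carry 2 mutant copies of Myt1, which encodes a zinc finger transcription factor of neural cells, and the study searched for genes downstream of it as oligodendrocytes, which make myelin, mature. The labels do not describe the Myt1 allele. They also leave unsaid whether each sample is a separate animal, and p-values then cover only the spread among these 6 samples. Values are TPM, a transcript abundance corrected for transcript length and set to a common total in each sample, which allows levels of different genes to be compared. Cells were not separated, so fewer cells of a type and less RNA per cell cannot be told apart.

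Sonic hedgehog is a secreted protein that patterns the ventral spinal cord. Without a ligand, the receptor Ptch1 holds the membrane protein Smo inactive, and Gli2 and Gli3 are processed towards repressor forms in a route that runs through the primary cilium. With a ligand, Smo is released and the Gli proteins turn on targets that include Gli1, Ptch1 and Hhip, so that the pathway induces both its own amplifier and its own inhibitors. In the ventral cord this signal sets up the progenitor domain that first makes motor neurons and later oligodendrocyte precursors.

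No member of the pathway was called different between Myt1-/- and WT cord. Of the 9 members, 0 passed an adjusted p of 0.05 in limma, and of all 15962 genes tested 0 (0%) did. At an unadjusted p under 0.05 there were also 0 members, against 7.45% of genes tested. The log2 changes of the 9 lay between -0.21 for Gli1 and 0.13 for Hhip, with a median of 0.07, beside a median of 0.03 over all genes tested. The groups did not overlap for 2 members: Gli1 was lower in every Myt1-/- sample than in any WT sample, as were 5.38% of genes tested, and Gli3 was higher in every Myt1-/- sample, as were 8.91%. In either direction such genes made up 14.3% of those tested, so 2 of 9 members is close to the background. The intervals below give how large a change each measurement would still allow.

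Across the whole table, the targeted gene Myt1 was measured at 6.14, 5.36 and 5.28 TPM in the Myt1-/- samples and at 11.54, 11.53 and 13.61 TPM in the WT samples, so every Myt1-/- sample lay below every WT sample. Its limma adjusted p was 0.140, so the threshold that called no member did not call Myt1 either. WT replicate 1 stood apart in its mitochondrial share and in how many genes were lowest in it. Transcripts encoded by mitochondria made up 8.89% to 9.04% of TPM in the Myt1-/- samples and 11.3%, 8.64% and 8.69% in WT replicates 1, 2 and 3, and 38.9% of the genes tested had their lowest value of the 6 in WT replicate 1, against 9.97% to 14.1% in each other library. Of the 9 members 5 were lowest in that library, and 5 were highest in WT replicate 3. The share of all genes tested that were highest in WT replicate 3 was not computed, so the second count has no background beside it. The sum of 7 meningeal fibroblast markers, led by Col1a2, was 1309 to 1356 TPM in the Myt1-/- samples, and 744, 1519 and 2009.9 TPM in WT replicates 1, 2 and 3. Not every marker followed the sum. Aldh1a2 was at 41.51 TPM in WT replicate 1 and lowest in WT replicate 2, at 28.13 TPM. Foxc1 was at 4.90 TPM in WT replicate 1 and lowest in Myt1-/- replicate 1, at 4.31 TPM. Other libraries stood apart in other markers. The 7 skeletal muscle markers summed to 11.76, 12.41 and 96.25 TPM in Myt1-/- replicates 1, 2 and 3. In WT replicates 1, 2 and 3 they summed to 9.98, 13.36 and 43.06 TPM, so replicate 3 was the highest in each group.

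**Figure D1:**
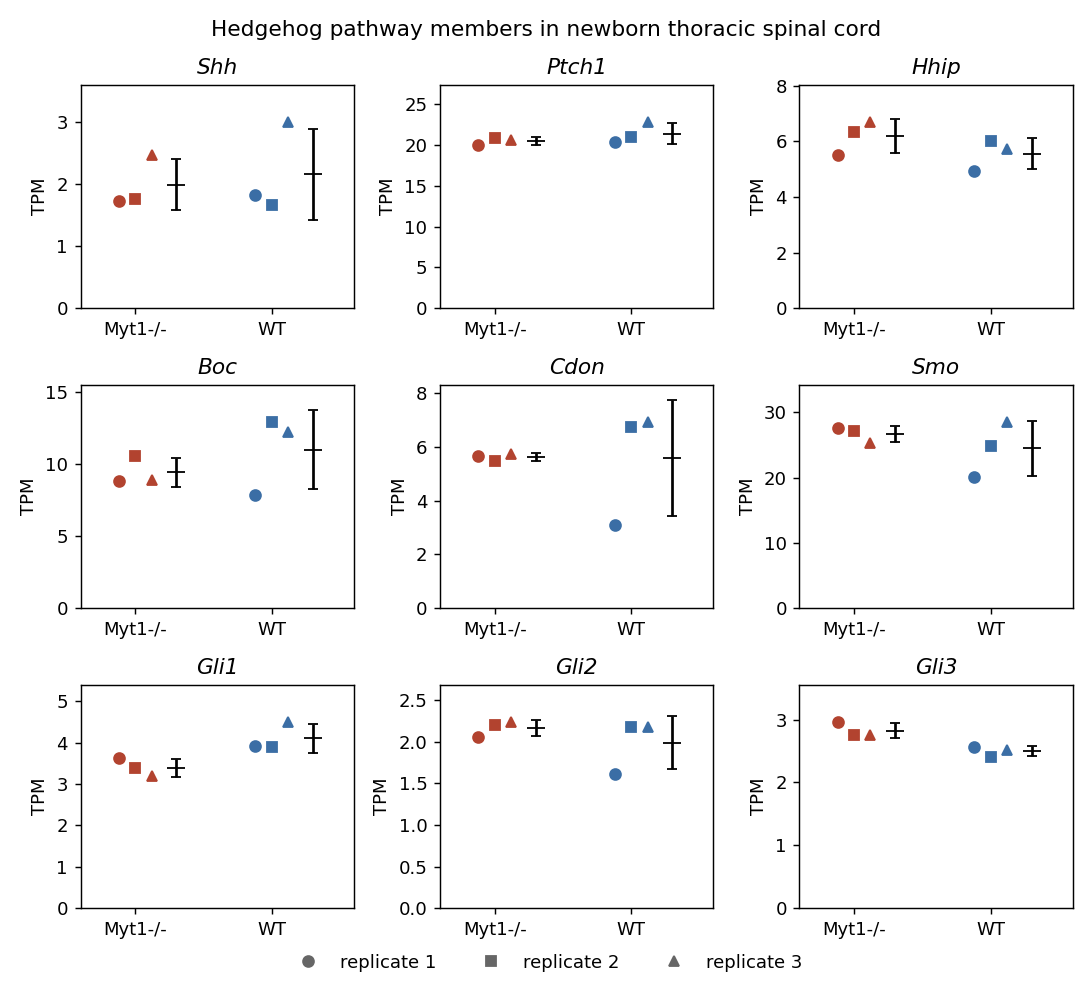
TPM of the 9 members (vertical axes from 0, each panel with its own scale) in the 3 Myt1-/- samples and the 3 WT samples. Points are samples, with the marker giving the replicate number, and the bar beside them is the mean with its SD. Gli1 and Gli3 are the members whose groups do not overlap, and WT replicate 1 is the low point for Boc, Cdon, Smo, Gli2 and Hhip.

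Shh (ENSMUSG00000002633, chromosome 5, 28456815 to 28467256, minus strand, GRCm38), the ligand, was among the lowest transcripts of the pathway. It was at 1.73, 1.76 and 2.46 TPM in the Myt1-/- samples and at 1.82, 1.65 and 2.99 TPM in the WT samples. The groups overlapped, and replicate 3 was the highest in each. The mean was 1.98 ± 0.413 TPM in Myt1-/- cord and 2.15 ± 0.730 TPM in WT cord (SD, n = 3 each). On the log2(TPM + 1) scale, used for every log2 change here, the difference was -0.06 (SE 0.21), with a 95% interval of -0.57 to 0.45 and a limma adjusted p of 0.950. Without WT replicate 3 the change was 0.12, so 1 library sets its sign, and without WT replicate 1 it was -0.13. An interval this wide does not separate an unchanged level from a moderate change in either direction.

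In the cord Shh is made by the floor plate, the strip of cells at the ventral midline, and also by motor neurons, so markers of both were read beside it. Foxa2, the transcription factor that defines the floor plate, was at 0.71, 0.94 and 0.76 TPM in the Myt1-/- samples and at 1.33, 1.32 and 2.12 TPM in the WT samples. Every Myt1-/- sample lay below every WT sample, as for 5.38% of genes tested. The Myt1-/- mean was 0.505 of the WT mean, with a limma unadjusted p of 0.0363 and an adjusted p of 0.669. Genes were tested if their mean over all samples was at least 1 TPM. Foxa2 averaged 0.803 TPM in Myt1-/- cord and 1.59 TPM in WT cord, so it passed that filter through its WT values. The sum of the 8 floor plate markers, led by Ntn1, was 133 to 146 TPM in the Myt1-/- samples and 129 to 144 TPM in the WT samples, and no marker of the list was at 0 in all libraries. Of the 5 that were tested, 1, Foxa2, was at an unadjusted p under 0.05. The 9 motor neuron markers summed to 158 to 253 TPM in the Myt1-/- samples and to 246 to 422 TPM in the WT samples; of these 9, 4 were lower at an unadjusted p under 0.05, against 3.13% of genes tested. These 4 were Prph, Slc18a3, Ret and Slc5a7. Slc18a3, Ret and Slc5a7 averaged 19.0, 48.5 and 13.9 TPM in Myt1-/- cord and 25.1, 59.8 and 16.4 TPM in WT cord. The log2 changes of the 9 were negative for 8 and 0.08 for Mnx1. Prph, which also marks sensory ganglia, had the highest level of the list, at 142, 124 and 67.1 TPM in the Myt1-/- samples and 209, 128 and 278 TPM in the WT samples. The 9 sensory ganglion markers, which share Prph and Isl1 with that list, summed to 309, 296 and 159 TPM in the Myt1-/- samples and to 433, 269 and 546 TPM in the WT samples, lowest in Myt1-/- replicate 3 and highest in WT replicate 3 as for Prph. The part of these cells in the level of Shh was not tested.

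The other hedgehog ligands and the genes that make or release them gave no call either. Dhh, the ligand made by Schwann cells, was at 2.53, 2.22 and 1.66 TPM in the Myt1-/- samples and at 4.06, 2.20 and 4.19 TPM in the WT samples. It was lowest in Myt1-/- replicate 3, and WT replicate 2 lay inside the Myt1-/- range (log2 change -0.49, limma adjusted p 0.678). The 9 Schwann cell markers, which include Dhh itself and are led by Pmp22, summed to 82.1 to 138 TPM in the Myt1-/- samples and 136 to 249 TPM in the WT samples, and none was at 0 in all libraries. Of these 9, 4 were lower at an unadjusted p under 0.05, against 3.13% of genes tested. Ncmap, among those 4, averaged 0.807 TPM in Myt1-/- cord and 1.82 TPM in WT cord, so it passed the filter through its WT values. How much of the difference in Dhh comes with those cells was not tested. Ihh, the remaining ligand, was between 0.07 and 0.29 TPM in the 6 samples and was not tested. Among the 7 genes of this list besides Shh that were tested, log2 changes ran from -0.49 for Dhh to 0.26 for Notum, a secreted enzyme best known for inactivating Wnt proteins. Scube3, of a family of secreted proteins that help carry the lipid-bearing ligand, averaged 6.81 TPM in Myt1-/- cord and 6.08 TPM in WT cord, and Hhat, which adds the palmitate group to the ligand, averaged 2.39 TPM in Myt1-/- cord and 2.18 TPM in WT cord. Without WT replicate 1 the log2 change was 0.08 for Notum and 0.02 for Scube3, and that of Hhat turned to -0.06, against 0.10 with all samples.

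Ptch1 (ENSMUSG00000021466, chromosome 13, 63508328 to 63573598, minus strand), the main receptor and itself a target of the pathway, was the steadiest member. It was at 19.94, 20.86 and 20.57 TPM in the Myt1-/- samples and at 20.33, 20.95 and 22.79 TPM in the WT samples, so the groups overlapped, with WT replicate 3 above the other 5 samples. The mean was 20.5 ± 0.470 TPM in Myt1-/- cord and 21.4 ± 1.28 TPM in WT cord (SD, n = 3 each), and the coefficient of variation over all 6 samples was 4.75%. The log2 change was -0.06 (SE 0.07), with a 95% interval of -0.23 to 0.11 and a limma adjusted p of 0.845, the narrowest interval of the 9, and it was -0.09 without WT replicate 1.

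Hhip (ENSMUSG00000064325, chromosome 8, 79965851 to 80058006, minus strand) encodes a membrane protein that binds and sequesters the ligand, and is the other inhibitor that the pathway induces. It was at 5.52, 6.35 and 6.69 TPM in the Myt1-/- samples and at 4.94, 6.02 and 5.71 TPM in the WT samples. The groups overlapped, and the lowest value was in WT replicate 1. The log2 change was 0.13 (SE 0.12), with a 95% interval of -0.16 to 0.43 and a limma adjusted p of 0.802. Without WT replicate 1 it was 0.06.

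Boc and Cdon encode a pair of related cell surface proteins of the immunoglobulin superfamily that bind the ligand together with Ptch1 and raise the response of a cell. Boc (ENSMUSG00000022687, chromosome 16, 44485049 to 44558897, minus strand) was at 8.83, 10.56 and 8.85 TPM in the Myt1-/- samples and at 7.85, 12.90 and 12.19 TPM in the WT samples. WT replicates 2 and 3 lay above all Myt1-/- values, and WT replicate 1 lay below all of them. Cdon (ENSMUSG00000038119, chromosome 9, 35421128 to 35507652, plus strand) had the same arrangement, at 5.65, 5.46 and 5.74 TPM in the Myt1-/- samples and 3.10, 6.73 and 6.92 TPM in the WT samples. Its Myt1-/- values were tightly grouped (SD 0.143 TPM) and its WT values were not (SD 2.15 TPM, n = 3 each).

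Over all 6 samples the log2 change was -0.18 (SE 0.19) for Boc and 0.07 (SE 0.26) for Cdon, with limma adjusted p of 0.824 and 0.954. The log2 changes of Boc and Cdon were -0.06 and 0.22 without WT replicate 2, and -0.10 and 0.23 without WT replicate 3. Nominally lower values came only from leaving out WT replicate 1, the library where both were lowest. Without WT replicate 1, Boc averaged 9.41 TPM in Myt1-/- cord and 12.5 TPM in WT cord, a log2 change of -0.38 (95% interval -0.65 to -0.11, limma unadjusted p 0.0142, adjusted p 0.602). In the same fit Cdon averaged 5.62 TPM in Myt1-/- cord and 6.83 TPM in WT cord, and its log2 change turned to -0.24 (95% interval -0.48 to -0.01, limma unadjusted p 0.0462, adjusted p 0.622). These 2 of 9 members were then lower at an unadjusted p under 0.05, against 4.69% of genes tested in that fit (7.89% in either direction). Without that library 4 members, Boc, Cdon, Gli1 and Ptch1, were lower in every Myt1-/- sample than in either WT sample, against 13.5% of genes tested, and 1, Gli3, was higher, against 12.2%. The sum of the meningeal markers was also lowest in WT replicate 1 (744 TPM), although Aldh1a2 and Foxc1 of that list were not. The part of these markers in the low Boc and Cdon values of that library was not tested. Gas1, a further co-receptor, held in the membrane by a lipid anchor, was at 17.70 to 21.92 TPM in the Myt1-/- samples and at 13.16, 20.85 and 20.87 TPM in WT replicates 1, 2 and 3, and so was likewise lowest in WT replicate 1; its log2 change was 0.09 with all samples and -0.12 without that library. Lrp2, a large endocytic receptor for the ligand, was under 1 TPM on average and not tested; it was at 0.54, 1.31 and 0.68 TPM in the Myt1-/- samples and at 0.35, 0.51 and 0.46 TPM in the WT samples.

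Smo (ENSMUSG00000001761, chromosome 6, 29735503 to 29761365, plus strand), the membrane protein through which the signal enters the cell, was the most abundant member. It was at 27.56, 27.19 and 25.30 TPM in the Myt1-/- samples and at 20.13, 24.87 and 28.50 TPM in the WT samples. The WT values spanned the Myt1-/- values on both sides. The mean was 26.7 ± 1.21 TPM in Myt1-/- cord and 24.5 ± 4.20 TPM in WT cord (SD, n = 3 each). The log2 change was 0.13 (95% interval -0.17 to 0.43, limma adjusted p 0.807). Without WT replicate 1 the means were 26.68 TPM in Myt1-/- cord and 26.69 TPM in WT cord, with a log2 change of 0.00.

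**Figure D2:**
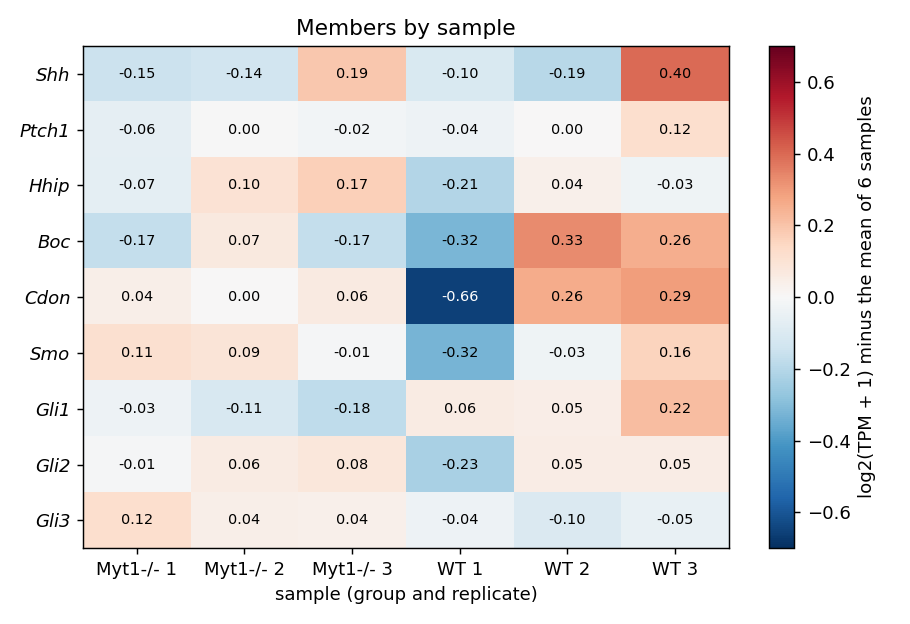
Each member (rows) in each sample (columns, Myt1-/- left of WT) as log2(TPM + 1) minus the mean of the 6 samples, red above and blue below that mean. The WT replicate 1 column is the low one, with Cdon at -0.66, Smo and Boc at -0.32 and Gli2 at -0.23, while Shh is highest in WT replicate 3 at 0.40.

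The 3 Gli genes encode the zinc finger transcription factors that end the pathway. Gli1 (ENSMUSG00000025407, chromosome 10, 127329882 to 127341974, minus strand), an activator whose transcription depends on the signal and which is widely read as a gauge of it, had the lowest log2 change of the 9. It was at 3.62, 3.38 and 3.19 TPM in the Myt1-/- samples and at 3.92, 3.89 and 4.50 TPM in the WT samples. The highest Myt1-/- value lay below the lowest WT value. The mean was 3.40 ± 0.215 TPM in Myt1-/- cord and 4.10 ± 0.344 TPM in WT cord (SD, n = 3 each), which is 82.8% of the WT level. The log2 change was -0.21 (SE 0.12), with a 95% interval of -0.51 to 0.08 that takes in no change, a limma unadjusted p of 0.127 and an adjusted p of 0.721. The exact two-sided permutation p was 0.1, the smallest that 3 samples against 3 can give. In the limma fit without a variance trend its unadjusted p was 0.0342 and its adjusted p 0.706. Gli1 alone of the 9 members was then lower at the unadjusted threshold, against 2.84% of genes tested in that fit (6.95% in either direction). Under every other setting the limma unadjusted p of Gli1 was higher, from 0.0867 with median-ratio scaling to 0.274 without WT replicate 3.

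Gli2 (ENSMUSG00000048402, chromosome 1, 118834132 to 119053619, minus strand), the main first-line activator, was at 2.06, 2.20 and 2.24 TPM in the Myt1-/- samples and at 1.62, 2.18 and 2.18 TPM in the WT samples. All values but that of WT replicate 1 lay close together. The log2 change was 0.09 (95% interval -0.28 to 0.45, limma adjusted p 0.899), and -0.01 without WT replicate 1. Gli3 (ENSMUSG00000021318, chromosome 13, 15463235 to 15730026, plus strand), which acts mostly as a repressor, was at 2.96, 2.76 and 2.75 TPM in the Myt1-/- samples and at 2.56, 2.41 and 2.52 TPM in the WT samples. Here every Myt1-/- sample lay above every WT sample. The mean was 2.82 ± 0.118 TPM in Myt1-/- cord and 2.50 ± 0.0777 TPM in WT cord (SD, n = 3 each), 1.13-fold higher. Its log2 change was 0.13 (SE 0.13), with a 95% interval of -0.17 to 0.43, a limma adjusted p of 0.811 and an exact two-sided permutation p of 0.1. Gli1 and Gli3 thus differed in opposite directions, by amounts that their intervals do not separate from 0.

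**Figure D3:**
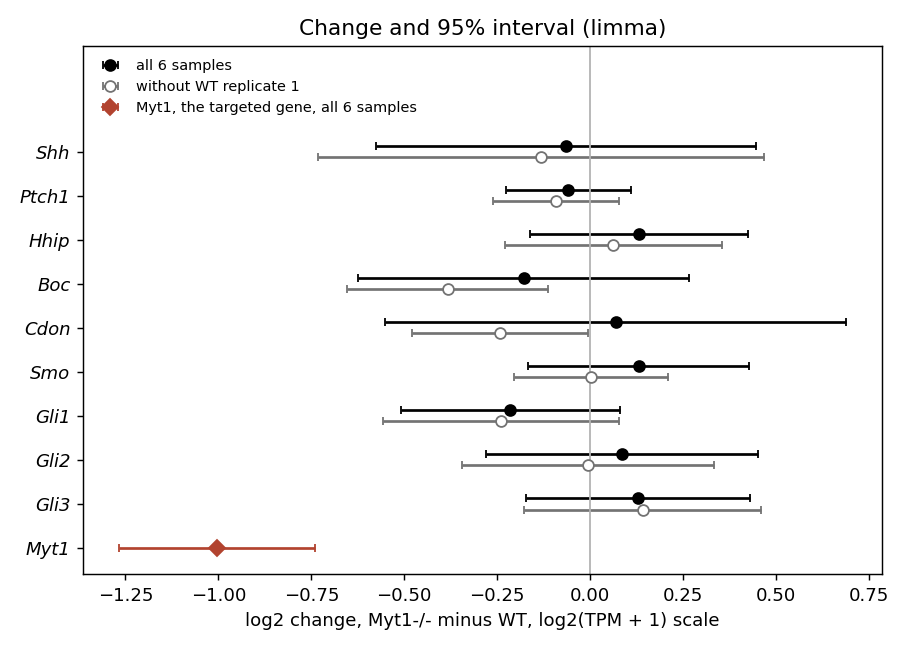
Log2 change, Myt1-/- minus WT, with its 95% interval from limma, for each member with all 6 samples (filled) and without WT replicate 1 (open), and for Myt1 as the targeted gene. With all samples every member's interval includes 0, whereas that of Myt1 runs from -1.27 to -0.74 (limma adjusted p 0.140). Without WT replicate 1 the intervals of Boc and Cdon lie below 0.

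Ordered by mean TPM over the 6 samples, the members ran Smo (25.6), Ptch1 (20.9), Boc (10.2), Hhip (5.87), Cdon (5.60), Gli1 (3.75), Gli3 (2.66), Gli2 (2.08) and Shh (2.07). Each level is per transcript length. Neighbours in this order whose values over the 6 samples overlapped were Smo with Ptch1, Hhip with Cdon, Cdon with Gli1, and Gli2 with Shh. Those that did not overlap with the next in order were Ptch1 with Boc, Boc with Hhip, Gli1 with Gli3, and Gli3 with Gli2. The receptor, its partner Smo and the co-receptor Boc therefore stood above the ligand and the Gli factors in both groups.

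RefSeq (GRCm38.p6) gave a promoter window, 250 bases before to 50 after a transcript start, for 6 of the 9 members: Ptch1, Smo, Gli2, Gli3, Hhip and Cdon. The start that RefSeq uses can differ from the outermost start in GENCODE, and for Cdon, Gli3 and Ptch1 it lies inside the gene span given above. Both strands were searched for the consensus of the Gli proteins, GACCACCCA, and for AAGTTT, the core bound by Myt1, and no matches of the motifs overlapped. The Gli consensus was in 0 of the 6 windows and in 0.253% of 32851 windows of this length across the genome. The Myt1 core was in 2 of the 6, Cdon and Gli3, and in 14.4% of all windows. In the Cdon window the match began at position -62, counted from 0 at that start, on the strand of the gene, and in the Gli3 window it lay on the opposite strand from position -107. Shown are the windows with a match, followed by that of Ptch1 as the member that is both receptor and target, all 5′ to 3′ on the strand of the gene, with the letters of a match in capitals. They lie at chr9:35451826-35452125 on the plus strand, chr13:15463473-15463772 on the plus strand and chr13:63565686-63565985 on the minus strand.
Cdon: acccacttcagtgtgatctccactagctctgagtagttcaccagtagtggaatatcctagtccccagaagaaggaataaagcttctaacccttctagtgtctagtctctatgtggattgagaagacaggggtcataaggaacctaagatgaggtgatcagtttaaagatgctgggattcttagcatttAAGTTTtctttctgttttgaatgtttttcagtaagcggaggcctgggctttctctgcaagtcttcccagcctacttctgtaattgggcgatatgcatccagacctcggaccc
Gli3: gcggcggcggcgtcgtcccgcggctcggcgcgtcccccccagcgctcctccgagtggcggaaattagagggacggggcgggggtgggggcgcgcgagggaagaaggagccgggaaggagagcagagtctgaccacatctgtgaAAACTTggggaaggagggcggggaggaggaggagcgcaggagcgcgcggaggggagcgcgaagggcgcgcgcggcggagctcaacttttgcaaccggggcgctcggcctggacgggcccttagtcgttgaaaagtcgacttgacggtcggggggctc
Ptch1: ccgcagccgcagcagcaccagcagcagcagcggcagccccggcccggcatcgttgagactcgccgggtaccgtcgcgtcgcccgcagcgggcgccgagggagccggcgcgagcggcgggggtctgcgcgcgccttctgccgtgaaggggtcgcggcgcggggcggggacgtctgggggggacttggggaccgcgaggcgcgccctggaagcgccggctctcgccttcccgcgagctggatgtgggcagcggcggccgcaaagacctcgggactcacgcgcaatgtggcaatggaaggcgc
A match describes the letters and shows no binding, and Cdon and Gli3 had log2 changes of 0.07 and 0.13 with all samples, neither past the test.

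The further genes of the pathway were read from lists by role, 55 genes besides the 9 members, of which 50 were tested. Of these, 0 passed an adjusted p of 0.05 in limma, while 2 were higher and 2 lower at an unadjusted p under 0.05, against 4.32% and 3.13% of genes tested. Their median log2 change was 0.04. All 4 at that threshold stood in the list of genes that hedgehog signalling induces in the ventral cord, and they went both ways. Of the 50, 4 were higher and 3 lower in Myt1-/- cord without overlap between the groups. Among all genes tested these shares were 8.91% and 5.38%, so such genes were about as frequent here as in the background.

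Nkx2-2, a homeodomain factor of the ventral progenitors nearest the floor plate that is also needed for oligodendrocytes to mature, was at 8.48, 7.42 and 8.22 TPM in the Myt1-/- samples and at 16.90, 23.89 and 18.80 TPM in the WT samples. Its groups lay far apart, with a log2 change of -1.19 and a limma adjusted p of 0.146. Foxa2, given above, was the other lower gene, and it passed the filter through its WT values. Olig1, a bHLH factor of the oligodendrocyte lineage, was at 168, 151 and 150 TPM in the Myt1-/- samples and at 136, 127 and 107 TPM in the WT samples (log2 change 0.35, adjusted p 0.669). Nkx6-1, a homeodomain factor of the ventral cord, was at 8.30, 8.35 and 8.59 TPM in the Myt1-/- samples and at 7.20, 6.61 and 6.99 TPM in the WT samples (log2 change 0.25, adjusted p 0.669). For both, every Myt1-/- sample lay above every WT sample, as for 8.91% of genes tested. Nkx2-2 belongs as well to the 9 markers of committed and myelinating oligodendrocytes, led by Mbp, whose sum was 94.4 to 113 TPM in the Myt1-/- samples and 309 to 733 TPM in the WT samples. All 9 of these markers were lower at an unadjusted p under 0.05, against 3.13% of genes tested. Enpp6 (0.207 TPM in Myt1-/- cord, 4.58 TPM in WT cord) and Mobp (0.227 and 9.29 TPM) passed the filter through their WT values. The part of these markers in the Nkx2-2 difference was not tested.

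None of the remaining induced targets was at an unadjusted p under 0.05. Olig2 was at 38.75, 32.84 and 30.54 TPM in the Myt1-/- samples and at 32.86, 34.57 and 24.65 TPM in the WT samples, with overlapping groups. Nkx6-2 was at 2.14, 1.82 and 2.38 TPM in the Myt1-/- samples and at 4.07, 2.94 and 1.71 TPM in the WT samples. Ccnd1 and Ccnd2, the D-type cyclins, had log2 changes of 0.08 and 0.13, and Mycn, a growth-promoting transcription factor, 0.35 with an adjusted p of 0.703. Without WT replicate 1 these were -0.01 for Ccnd1, -0.07 for Ccnd2 and 0.18 for Mycn, and the log2 change of Nkx6-2 was -0.07, against -0.28 with all samples. Nkx2-9 was listed at 0 in all 6 samples. Of the genes that the signal keeps off in the ventral neural tube, 6 besides Boc and Cdon were tested and 0 were at an unadjusted p under 0.05. Irx3 had the smallest p of them, at 4.98 TPM in Myt1-/- cord and 4.36 TPM in WT cord, and Pax6 was at 11.0 TPM in Myt1-/- cord and 10.6 TPM in WT cord. Pax3 was at 1.51 TPM in Myt1-/- cord and 1.75 TPM in WT cord. All 3 encode homeodomain factors of more dorsal progenitors.

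Between Smo and the Gli proteins, all 25 further genes of transduction and of the cilium were tested, and 0 were at an unadjusted p under 0.05. Their median log2 change was 0.02. Sufu, which holds the Gli proteins in the cytoplasm, was at 12.51, 12.96 and 13.53 TPM in the Myt1-/- samples and at 12.24, 12.86 and 14.88 TPM in the WT samples, with overlapping groups and WT replicate 3 the highest. Mosmo, which lowers the amount of Smo at the cilium, had the smallest p, at 19.4 TPM in Myt1-/- cord and 16.3 TPM in WT cord (log2 change 0.24, limma unadjusted p 0.0524, adjusted p 0.671). Grk2, a kinase that phosphorylates Smo, was at 82.3 TPM in Myt1-/- cord and 88.4 TPM in WT cord. Its groups did not overlap, as for 5.38% of genes tested in that direction. Gpr161, a ciliary receptor that keeps the pathway off, was at 19.6 TPM in Myt1-/- cord and 17.2 TPM in WT cord, also without overlap, and its adjusted p was 0.693; its log2 change was 0.18, or 0.10 without WT replicate 1. Evc, a ciliary partner of Smo, was at 7.45 TPM in Myt1-/- cord and 5.74 TPM in WT cord (adjusted p 0.678).

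**Figure D4:**
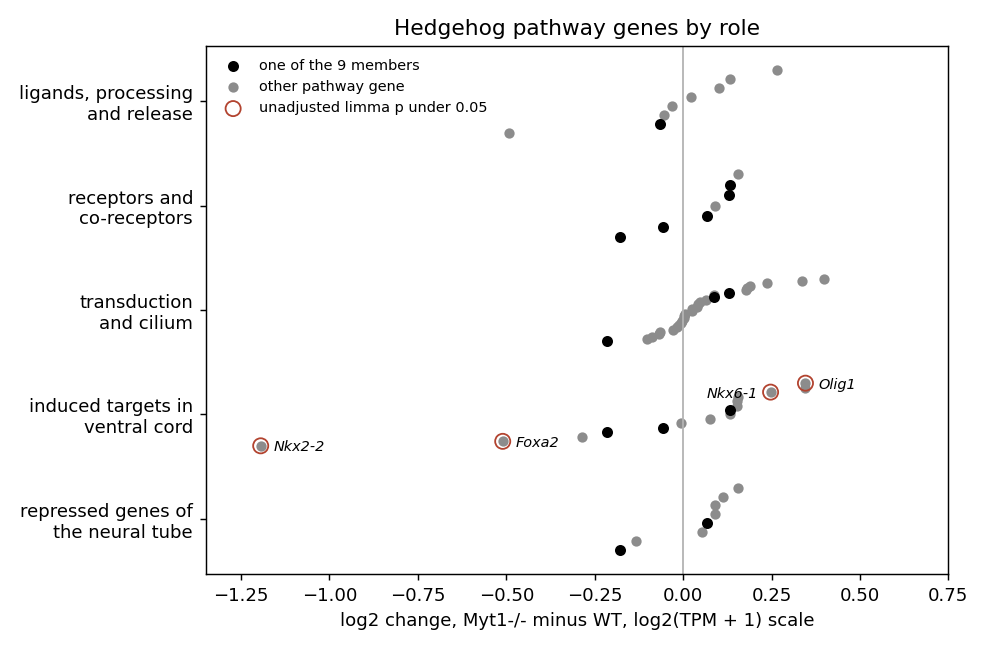
Log2 change, Myt1-/- minus WT, of every tested gene in 5 lists by role (rows); black points are the 9 members, grey points the other genes, and a ring marks an unadjusted limma p under 0.05. A gene may stand in more than 1 list. The 4 ringed genes, Nkx2-2 at -1.19, Foxa2 at -0.51, Nkx6-1 at 0.25 and Olig1 at 0.35, all lie in the row of induced targets.

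For 3 members the genes with the most similar course over the 6 samples were looked up among 12243 genes of at least 5 TPM, by the root mean square distance between values of log2(TPM + 1) after each gene's mean was subtracted. Nearest to Gli1 were Stim1, H2bc4, Jam3, Abi1 and Lhfp, at distances of 0.026 to 0.039, where the median gene lay at 0.17. Stim1, a calcium sensor of the endoplasmic reticulum, was at 23.92, 22.59 and 20.51 TPM in the Myt1-/- samples and 25.01, 25.17 and 27.74 TPM in the WT samples, and like Gli1 was lowest in Myt1-/- replicate 3 and highest in WT replicate 3. Nearest to Shh were Atf5, Tmem63c, Srcap, Pmepa1 and Lzts1 (0.047 to 0.081), all highest in replicate 3 within each group. Nearest to Boc were Fcgr3, Prc1, Slc35a2, Atp11a and Sdf2l1 (0.052 to 0.075), whose lowest value was in WT replicate 1. With 6 samples and 12243 candidates, close matches of this kind are a description of these libraries.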

How the data were processed

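RNA was sequenced from 3 Myt1-/- and 3 WT thoracic cords of newborn mice, grouped by the sample labels. The authors deposited TPM with 2 decimals for 55487 genes. The submitters' processing notes name GRCm38.p6 as the build and RSEM and DESeq2 as tools, without a step for each. An aligner, an annotation release and read filters were not given in the sources used here. Since TPM hold no read counts, the depth is unknown and counting intervals are not given. The total in each sample is fixed, so a gene's TPM falls when others take more. The deposited file has 1 further column of per-sample values that matches none of the labels, and it was left out.

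Values were analysed as log2(TPM + 1), which understates changes of low genes, with limma 3.58.1 in R 4.3.3 and a trend in the variance prior. Genotype was the only term. Of the genes, 39525 with a mean under 1 TPM were left out and 15962 tested, with two-sided p-values adjusted by Benjamini-Hochberg over all tested. Log2 changes are Myt1-/- minus WT, and folds are ratios of mean TPM. Exact permutation tests used SciPy 1.17.1, and figures matplotlib 3.10.9 in Python 3.11.15. The fit was tested on simulated data. Gene positions were taken from GENCODE M21 on GRCm38, where 55141 of the gene IDs were found. Besides the members and Myt1, named genes are the 4 of smallest p in each list, those needed to describe the pathway, and leading markers. Ccnd1, Ccnd2, Mycn, Olig2, Nkx6-2, Nkx2-9, Isl1, Lrp2, Aldh1a2, Foxc1, Slc18a3, Ret, Slc5a7 and Mnx1 were named after their values were seen. The members and lists were chosen with earlier results of these data known, and lists are described without a test. A gene that the rules name is not reported here, though it stays in every count. Alternatives were the variance prior, the pseudocount, the filter, the scaling, a replicate block and leaving out each sample.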

Additional observations from a re-analysis of the deposited data

How the results depend on the processing

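None of the 9 members passed an adjusted p of 0.05 in limma under any of 15 alternatives, the smallest adjusted p being 0.543, and 132 of 135 log2 changes kept their sign. The exceptions were Shh, 0.12 without WT replicate 3, and Gli2 and Cdon, -0.0065 and -0.24 without WT replicate 1; the cause was not tested. With 1 sample left out, log2 changes ran from -0.18 to 0.12 for Shh, -0.0065 to 0.13 for Gli2, -0.38 to -0.06 for Boc and -0.24 to 0.23 for Cdon. The genes past an adjusted p of 0.05 numbered 0 with all samples, 1 with robust empirical Bayes, 1 with a pseudocount of 0.1 and 0 to 7 with 1 sample left out. The 1189 genes at an unadjusted p under 0.05 became 718 to 1513, and the 2280 whose groups did not overlap 3472 to 4517, since fewer samples overlap less often. Of the 1189, 690 were higher in Myt1-/- cord; these were 542 of 1207 after median-ratio scaling, 583 of 1219 after upper-quartile scaling and 512 of 1260 without WT replicate 1. The 4 other pathway genes at that threshold became 2 to 6, 2 without Myt1-/- replicate 3. This count of other pathway genes, under every setting, was chosen after seeing the data. With the replicate block 1140 genes were at an unadjusted p under 0.05 and 0 past the adjusted one. Correlations of the deviations of same-numbered samples were 0.03, -0.07 and 0.06, and those of different-numbered samples ran from -0.12 to 0.10. With 3 samples in each group, these values cannot settle whether the numbers pair the samples. The spread between 3 samples limits what could be seen: the intervals of Shh and Cdon were the widest.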
